A study of Glycine max with 46 samples.

Results

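The fatty acid desaturases of soybean described here are 10 gene models of 3 families, which were followed through seed drying and germination. They are FAD2-1A (Glyma10g42470), FAD2-1B (Glyma20g24530), the FAD2-2 copies on chromosome 3 (Glyma03g30070) and chromosome 19 (Glyma19g32930), FAD3A (Glyma14g37350), FAD3B (Glyma02g39230), FAD3C (Glyma18g06950), SACPD-A (Glyma07g32850), SACPD-B (Glyma02g15600) and SACPD-C (Glyma14g27990). They were chosen by name, although earlier results of these data were known by then. All 10 are among the 54175 genes of the deposited table. FAD2-1A, FAD2-1B, FAD3A and SACPD-C are the 4 copies known as seed-type. The other 6 are taken here as the housekeeping copies. The deposited table does not pair these IDs with names. RefSeq lists a gene of the matching family on the chromosome that each ID gives. For SACPD-A that gene is named SAD2, with no SACPD-A among its synonyms, and chromosome 19 carries 2 FAD2-2 symbols, where the tables used here do not say which of them Glyma19g32930 is.

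RNA was sequenced from soybean of the genotype Williams 82, with no treatment other than the stage. The 7 stages were early, mid and late desiccation, the dry seed, and 3, 16 and 27 h after the start of imbibition (the uptake of water by the dry seed). All plants had 16 h of light and 8 h of dark at 22 °C. The tissue is labelled as whole seed, whereas the extraction protocol speaks of embryos. Each stage had 3 numbered biological replicates, each sequenced in 2 to 3 runs that were averaged here (late desiccation replicate 3 by its first run alone). The labels do not say whether replicates came from separate plants, so p-values measure the spread between these samples only, which may be technical.

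Oil fatty acids gain their double bonds one at a time. SACPD (stearoyl-acyl carrier protein desaturase) makes the first in the plastid and turns stearate into oleate. FAD2 makes the second in the endoplasmic reticulum and turns oleate into linoleate, and FAD3 makes the third and turns linoleate into linolenate. Soybean has duplicated genes for each step, and mutants of some copies are known for oils high in oleate (FAD2-1), low in linolenate (FAD3) or high in stearate (SACPD-C).

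Values are DESeq-normalized counts, which correct for library depth but not for gene length, so only changes between stages are compared and never the levels of different genes. The deposited values corresponded to between 2.47 M and 80.08 M reads per library. Summed over runs, late desiccation replicate 3 held 2.53 M reads and the other 20 replicates held 43.82 M to 86.52 M reads. Several libraries stood apart within their stage. In 8047 genes that were nearly silent at 16 and 27 h, the mean normalized count was 8.97 in early desiccation replicate 3 against 0.193 and 0.170 in the other early replicates, and 0.831 in late desiccation replicate 3 against 8.60 and 6.67. Dry seed replicate 1 was at 0.355 against 3.25 and 2.35 in the other dry seeds. The summed level of 8 gene models listed as seed storage protein genes ranged from 13111 to 63345 over the first 6 stages and from 2362 to 5817 at 27 h. All 8 had reads through late desiccation, and 1 was at 0 reads from the dry seed on. A list of 2 models for green tissue stayed between 0 and 21.1, and 1 of them was at 0 reads up to 3 h. Its highest value was at 27 h, with a dry seed replicate close to it at 20.2. The part of any tissue difference in the results at 27 h was not tested. None of these IDs is paired with a name in the tables used here. In such whole samples, fewer cells of a type and less RNA per cell cannot be told apart.

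In a single limma F test over all 7 stages, 6 of the 10 desaturase genes were called, among 9 that passed the filter on low values. Called means an adjusted p under 0.05 with Benjamini-Hochberg adjustment over 46537 genes, and at least a 2-fold difference between the highest and lowest stage. The same F test called 37.5% of all genes. The 6 were FAD2-1A, FAD2-1B, the chromosome 3 copy of FAD2-2, FAD3A, SACPD-A and SACPD-C. FAD3B (adjusted p = 0.0915 in limma), FAD3C (0.165) and SACPD-B (0.154) were not called by the F test, although FAD3B was called in 1 of the comparisons of stages that follow. The chromosome 19 copy of FAD2-2 was too low to test. edgeR and DESeq2, run on the reads recovered from the normalized counts, each called 7 genes of the set in their tests over all stages.

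**Figure D1:**
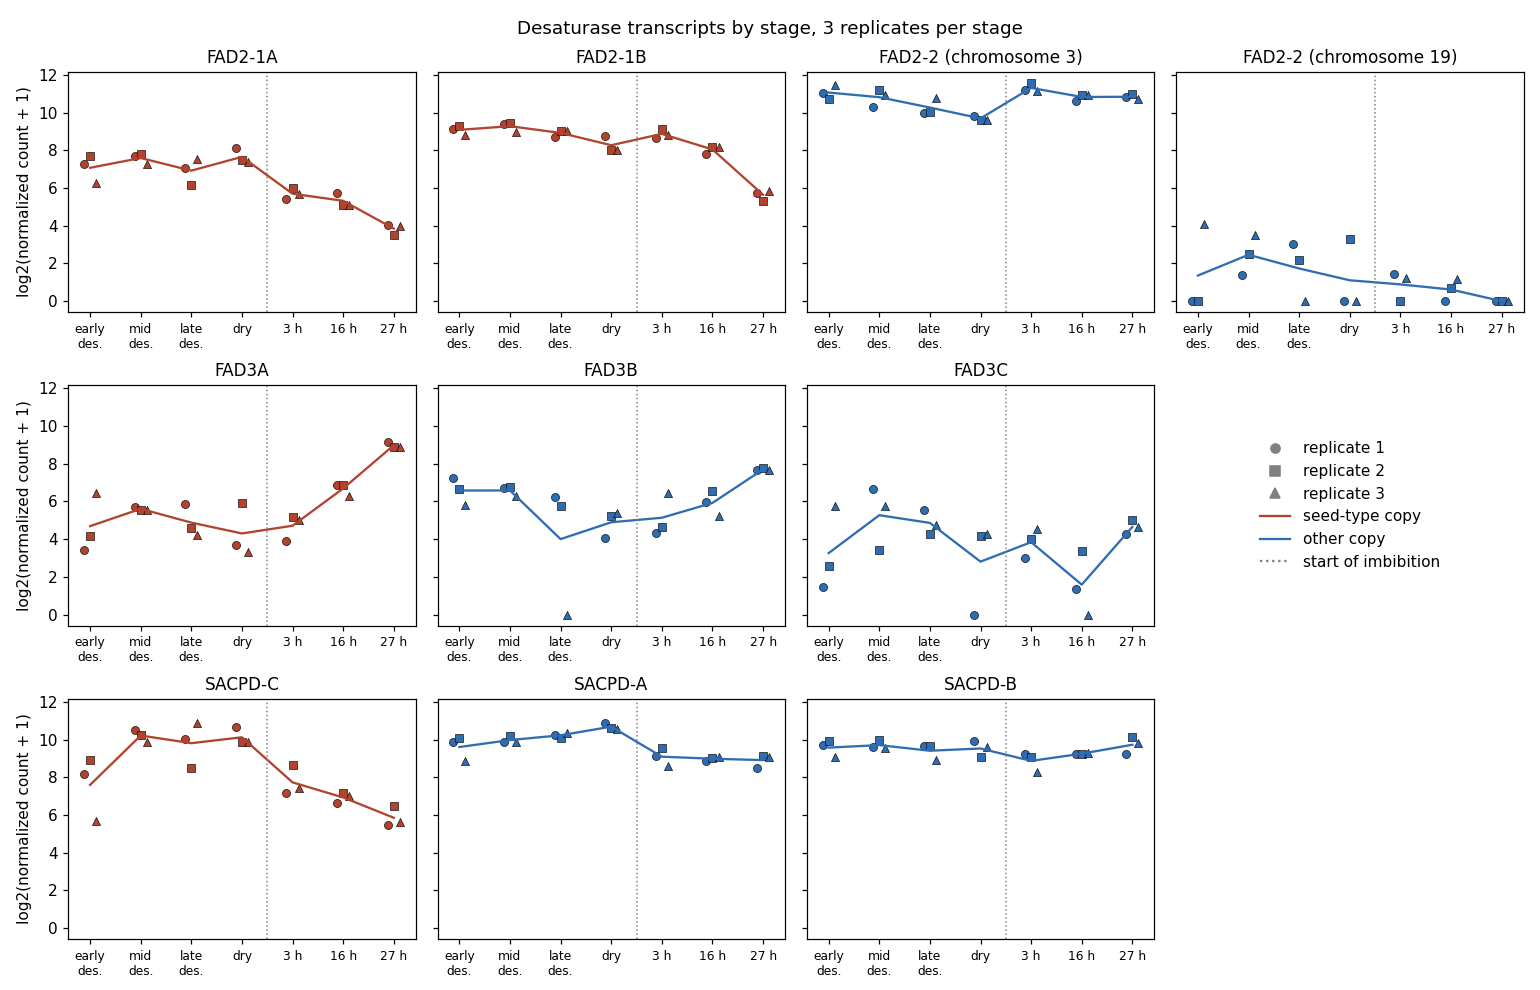
The y axis gives log2(normalized count + 1) of the 10 desaturase genes and the x axis the stage, with a panel per gene, a point per replicate and a line through the stage means. Red marks seed-type copies and blue the others, and the dotted line divides the stages before imbibition from those after it. The stage means of FAD2-1A, FAD2-1B and SACPD-C are lowest at 27 h, whereas FAD3A has its 3 highest values there, between 468 and 576 normalized counts.

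The design implies 6 steps between consecutive stages and 2 longer spans. No desaturase gene was called between the desiccation stages. From early to mid desiccation limma called 0 of 9, with 1 at an unadjusted p under 0.05, against 0.0494% of all genes rising and 0.00% falling. Among all genes that 0.00% stands for no fall in limma, where 613 falls had an unadjusted p under 0.05. edgeR called no fall and DESeq2 called 1. From mid to late desiccation 0 of 9 were called, with 2 at an unadjusted p under 0.05, against 0.116% of all genes rising and 0.511% falling. From late desiccation to the dry seed 0 of 9 were called, again with 2 at an unadjusted p under 0.05, against 1.49% rising and 2.55% falling. edgeR and DESeq2 also called 0 of the set in these 3 steps. With TMM scaling the balance over all genes moved to 11 rises and 1271 falls from mid to late desiccation (54 and 238 with the deposited scaling), and to 2771 rises and 540 falls from late desiccation to the dry seed (693 and 1186).

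The first 3 h of imbibition brought 1 rise and 3 falls among the 9 genes, against 2.09% and 1.31% of all genes (972 and 611 genes, and 1056 and 372 with TMM scaling). FAD2-2 on chromosome 3 rose, and FAD2-1A, SACPD-A and SACPD-C fell. From 3 to 16 h limma called 0 of 9, with 3 at an unadjusted p under 0.05, and edgeR and DESeq2 also called 0, against 4.77% of all genes rising and 2.27% falling. From 16 to 27 h FAD3A rose and FAD2-1A and FAD2-1B fell, against 6.45% of all genes rising and 8.35% falling.

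Across the whole drying period, from early desiccation to the dry seed, SACPD-A and SACPD-C rose and FAD2-2 on chromosome 3 fell. The shares of all genes were 2.67% rising and 4.94% falling, or 1243 and 2298 genes. That balance was the reverse with TMM scaling (2993 and 1109) and in edgeR (2952 and 1152). Between the dry seed and 27 h 3 genes rose (FAD3A, FAD3B and FAD2-2 on chromosome 3) and 4 fell (FAD2-1A, FAD2-1B, SACPD-A and SACPD-C), against 19.1% rising and 13.1% falling. The median change of the 9 genes in that span was 0.20 on the log2 scale, beside 0.12 for all genes tested. The comparisons share stages, so their counts are not independent of each other.

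**Figure D2:**
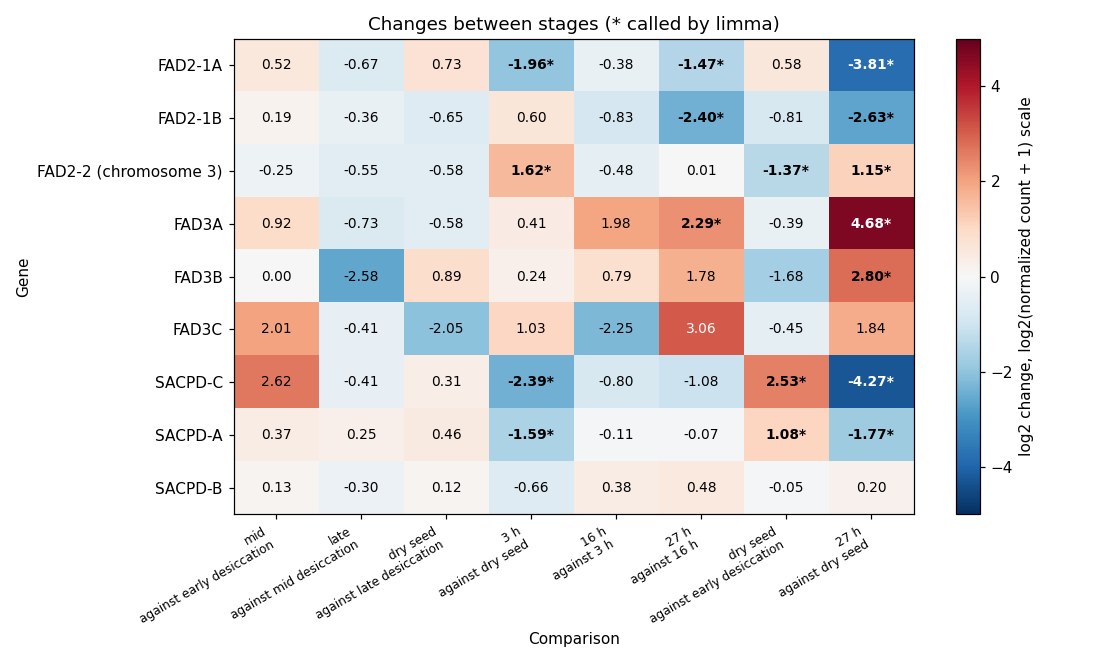
Log2 change, as colour and number, of the 9 desaturase genes tested (rows) in the 8 comparisons of stages (columns), with an asterisk where limma called the change. In the last column, 27 h against the dry seed, 7 genes were called, with changes from -4.27 for SACPD-C to 4.68 for FAD3A.

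SACPD-C, the copy whose mutants have high-stearate seeds, held its highest stage means from mid desiccation to the dry seed and fell after imbibition. In early desiccation its replicates were at 288, 487 and 50.3 normalized counts. Mid desiccation gave 1477, 1208 and 937, and late desiccation gave 1051, 360.0 and 1892. Early desiccation lay below mid desiccation in every replicate, with the lowest value in replicate 3, the early library that stood apart. Dry seed replicates were at 1604, 933 and 920.4, and the 3 h replicates at 140.1, 394 and 171. At 16 h the values were 97.9, 142 and 127, and at 27 h they were 42.9, 87.6 and 48.6. The dry seeds did not overlap with the 3 h samples, nor the 16 h with the 27 h samples.

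Between the dry seed and 27 h SACPD-C fell by 4.27 ± 0.66 (SE) on the log2 scale, 19.3-fold (limma, adjusted p = 3.39e-05). In the first 3 h it fell by 2.39 ± 0.66 (limma, adjusted p = 0.0368). That call was lost with TMM scaling (adjusted p = 0.0707) and with run 1 alone (0.0698). It was also lost without dry seed replicate 1 (0.142), 2 (0.0777) or 3 (0.0674), 3 h replicate 1 (0.146) or 3 (0.109), or 27 h replicate 3 (0.0517), each by limma, with changes between -2.53 and -2.10. The difference from early to mid desiccation was 2.62 ± 0.66 and was not called (limma, adjusted p = 0.407). Without early desiccation replicate 3 it was 1.66 and was called (limma, adjusted p = 0.0427). The early replicates left had lower means in the nearly silent genes than any mid replicate.

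The rise of SACPD-C (Glyma14g27990) from early desiccation to the dry seed was 2.53 ± 0.66 (limma, adjusted p = 0.0143). This became 1.57 without early desiccation replicate 3 (limma, adjusted p = 0.0462). Without dry seed replicate 1 it was 2.26 and not called (limma, adjusted p = 0.0670), nor was it called when the 2 stages were fitted alone (0.0533). Without all 3 libraries that stood apart it was 1.30 (limma, adjusted p = 0.0565).

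SACPD-A, a plastid desaturase copy taken as housekeeping, was highest in the dry seed. Its dry seed replicates were at 1872, 1556 and 1523 normalized counts, above all 3 late desiccation replicates at 1231, 1086 and 1285. Early desiccation gave 926, 1078 and 469, and mid desiccation gave 923, 1166 and 941. The early replicate at 469 was again the library that stood apart. The values at 3 h were 551, 755 and 388, at 16 h 463, 515 and 539.5, and at 27 h 359.8, 566 and 543. No sample after imbibition reached the lowest dry seed, and the 3 stages after imbibition overlapped with each other.

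SACPD-A fell by 1.59 ± 0.26 (SE) on the log2 scale in the first 3 h, a 3.01-fold change (limma, adjusted p = 0.000829). Between the dry seed and 27 h it fell by 1.77 ± 0.26 (limma, adjusted p = 7.31e-06). Its rise from early desiccation to the dry seed was 1.08 ± 0.26 (limma, adjusted p = 0.00601). That rise came below 2-fold, and was not called, without early desiccation replicate 3 (0.72), without dry seed replicate 1 (0.99) or in DESeq2 (0.89).

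SACPD-B, the other housekeeping copy, was called in no comparison. In limma its unadjusted p was under 0.05 in 1 of the 8, the step from the dry seed to 3 h. Its stage means ranged from 485 ± 152 (SD, n = 3) at 3 h to 875 ± 269 at 27 h, a 1.81-fold span. Every stage overlapped with the next in the order of levels. The lowest single value was 313, in 3 h replicate 3, and the highest was 1138, in 27 h replicate 2. Its difference between the dry seed and 27 h was 0.20 ± 0.28 (SE) on the log2 scale (limma, adjusted p = 0.676).

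FAD2-1A, a seed-type desaturase that makes linoleate, fell in steps after imbibition. Its early desiccation replicates were at 156, 203 and 74.9 normalized counts, mid desiccation at 206, 225 and 152, and late desiccation at 134, 70.7 and 182. The dry seeds were at 274, 176 and 166. The 4 stages before imbibition overlapped with one another in the order of levels. The 3 h replicates were at 41.4, 62.5 and 50.7, the 16 h replicates at 53.1, 33.7 and 32.9, and the 27 h replicates at 15.4, 10.4 and 14.8. The highest 3 h value was below the lowest value before imbibition, and the highest 27 h value was below the lowest at 16 h.

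FAD2-1A (Glyma10g42470) fell by 1.96 ± 0.38 (SE) on the log2 scale from the dry seed to 3 h, 3.88-fold (limma, adjusted p = 0.00297). Between 16 and 27 h it fell by 1.47 ± 0.38 (limma, adjusted p = 0.00602). Over the span from the dry seed to 27 h it fell by 3.81 ± 0.38 (limma, adjusted p = 3.46e-08). From late desiccation to the dry seed the difference was 0.73 ± 0.38 and was not called (limma, adjusted p = 0.279). It was called at 1.03 without early and late desiccation replicate 3 (limma, adjusted p = 0.0278). When dry seed replicate 1 was also left out, the difference was 0.80 and was not called (limma, adjusted p = 0.102).

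FAD2-1B, the duplicate of FAD2-1A with the same role, was still within its earlier range at 3 h and fell later. Early desiccation gave 566, 626 and 448 normalized counts, mid desiccation 678, 687 and 509, and late desiccation 417, 519 and 521. The dry seeds were at 433, 259 and 259, and the 3 h replicates at 402, 568 and 445. Dry seed replicate 1 lay within the 3 h range and the other dry seeds lay below it. The 16 h replicates were at 219, 286 and 291, and the 27 h replicates at 52.8, 38.8 and 57.0, below every other sample.

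FAD2-1B fell by 2.40 ± 0.22 (SE) on the log2 scale from 16 to 27 h, 5.29-fold (limma, adjusted p = 3.39e-08). From the dry seed to 27 h it fell by 2.63 ± 0.22 (limma, adjusted p = 2.75e-09). From the dry seed to 3 h the difference was 0.60 ± 0.22 in the upward direction and was not called (limma, adjusted p = 0.123). The step from 3 to 16 h, at -0.83 ± 0.22, passed the p threshold but not the 2-fold one (limma, adjusted p = 0.0148). So did the span from early desiccation to the dry seed, at -0.81 ± 0.22 (limma, adjusted p = 0.0144). Without dry seed replicate 1 that span was -1.06 and was called (limma, adjusted p = 0.00307).

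FAD2-2 on chromosome 3, a housekeeping copy of the same enzyme, moved the other way from FAD2-1A at imbibition. It was at 2075, 1679.6 and 2788 normalized counts in early desiccation and at 1263, 2380.0 and 1941 in mid desiccation. Late desiccation gave 1023, 1052 and 1727, and the dry seeds gave 911, 778 and 792. The dry seeds were the lowest of all 21 replicates. At 3 h the values were 2320.2, 3058 and 2295, at 16 h 1558, 1972 and 1947, and at 27 h 1821, 2006 and 1669. Every 3 h replicate exceeded the dry seeds, the 16 h and the 27 h samples.

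The chromosome 3 copy fell by 1.37 ± 0.23 (SE) on the log2 scale from early desiccation to the dry seed (limma, adjusted p = 0.000318). It then rose by 1.62 ± 0.23 within 3 h, 3.07-fold (limma, adjusted p = 0.000263). It was still 1.15 ± 0.23 above the dry seed at 27 h (limma, adjusted p = 0.000323). From 16 to 27 h, when both FAD2-1 genes fell, the difference was 0.01 ± 0.23 (limma, adjusted p = 0.986).

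FAD2-2 on chromosome 19 was close to the detection floor. Its 3 replicates per stage summed to 59, 64, 47 and 29 reads from early desiccation to the dry seed, and to 11 and 16 reads at 3 and 16 h. At 27 h it had 0 of 149.7 M reads, which at a floor of 3 reads allows up to 0.0200 RPM. The highest value was 15.8 normalized counts, in early desiccation replicate 3, where the other early replicates were at 0. The floor covers counting error only. The gene did not reach 10 normalized counts in 3 replicates and was not tested.

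FAD3A, the copy named as seed-type in the linolenate step, was highest in the germinating samples. Its early desiccation replicates were at 9.96, 17.2 and 85.6 normalized counts, mid desiccation at 51.6, 45.7 and 46.5, and late desiccation at 56.5, 23.2 and 17.4. The late value of 17.4 was only 2 reads, in the library of 2.53 M reads. The dry seeds were at 11.9, 59.5 and 8.88, and the 3 h replicates at 14.2, 35.7 and 31.4. Each of these 5 stages overlapped with the next in the order of levels, but mid desiccation lay above every 3 h sample. The highest early value came from the library that stood apart. At 16 h the values were 117, 117 and 78.6, and at 27 h they were 576, 468 and 478. The 27 h samples lay above all 16 h samples, and the 16 h samples lay above every 3 h, dry seed, late and mid desiccation sample but not above early replicate 3.

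FAD3A rose by 4.68 ± 0.66 (SE) on the log2 scale from the dry seed to 27 h, 25.6-fold (limma, adjusted p = 5.46e-06). The rise from 16 to 27 h was 2.29 ± 0.66, 4.89-fold (limma, adjusted p = 0.0149). This step was not called without 16 h replicate 3 (limma, adjusted p = 0.0670) or without 27 h replicate 1 (limma, adjusted p = 0.0538). From 3 to 16 h the difference was 1.98 ± 0.66 and missed the threshold (limma, adjusted p = 0.0556). Without early desiccation replicate 3 the same difference was called (limma, adjusted p = 0.0138), as it was without early replicate 1 (0.0402), late replicate 1 (0.0472) or 3 (0.0461), or dry seed replicate 2 (0.0271) or 3 (0.0485). From early to mid desiccation it was 0.92 ± 0.66 (limma, adjusted p = 0.624), and 1.79 without early replicate 3, where it was called (0.0429). The early replicates left were those with low means in the nearly silent genes.

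FAD3B, a second linolenate-forming copy, also had its 3 highest values at 27 h, at 201, 220.2 and 201 normalized counts. Early desiccation gave 153, 99.6 and 55.6, mid desiccation 103, 107 and 78.1, and late desiccation 74.7, 53.7 and 0. The value of 0 came from the library of 2.53 M reads, where 3 reads would be 26.0 normalized counts. Dry seeds were at 15.6, 36.5 and 41.5, the 3 h replicates at 19.3, 24.0 and 84.9, and the 16 h replicates at 62.6, 94.5 and 35.9. The 27 h samples did not overlap with any other stage.

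FAD3B rose by 2.80 ± 1.06 (SE) on the log2 scale from the dry seed to 27 h (limma, adjusted p = 0.0422). That call was lost with run 1 alone (limma, adjusted p = 0.0923). It was also lost without early desiccation replicate 2 (0.0506), dry seed replicate 1 (0.151), 2 (0.0644) or 3 (0.0559), or 27 h replicate 1 (0.0832), 2 (0.0926) or 3 (0.0849), each by limma. The difference between 16 and 27 h was 1.78 ± 1.06 and was not called (limma, adjusted p = 0.290), but it was called without late desiccation replicate 3 (limma, adjusted p = 0.00987) and in DESeq2. From early desiccation to the dry seed it was -1.68 ± 1.06 (limma, adjusted p = 0.403), and without late desiccation replicate 3 it was called (limma, adjusted p = 0.0211).

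FAD3C, the third copy of this enzyme, stayed between 0 and 98.6 normalized counts, and every stage overlapped with the next in the order of levels. Its replicates differed widely within a stage, from 1.78 to 52.9 in early desiccation and from 9.64 to 98.6 in mid desiccation. Without early and late desiccation replicates 3 the difference between those stages was 3.26 on the log2 scale and was called (limma, adjusted p = 0.0305), and with them it was 2.01 ± 1.24 and was not (0.624). Here too the early replicates left had low means in the nearly silent genes. At 16 h it was at 1.59, 9.52 and 0, and at 27 h at 18.6, 31.8 and 23.7, with no overlap. That difference of 3.06 ± 1.24 (SE) on the log2 scale was not called (limma, adjusted p = 0.0891). It was called without early desiccation replicate 3 (limma, adjusted p = 0.0406), dry seed replicate 1 (0.0443) or 16 h replicate 2 (0.0458). From 3 to 16 h the difference of -2.25 ± 1.24 was not called (limma, adjusted p = 0.291), but it was without all 3 libraries that stood apart (0.0256).

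The seed-type and housekeeping copies were compared within each replicate as a log2 ratio, with 1 added to each side. Apart from the added 1, this does not depend on how replicates are scaled against each other. Runs were averaged as normalized counts before the ratio was taken, so the weight of each run does depend on scaling. For FAD2 the ratio of the FAD2-1 pair to the FAD2-2 pair was -0.71 ± 0.30 (SD, n = 3) in the dry seed. It was -2.29 ± 0.09 at 3 h and -2.57 ± 0.05 at 16 h, and it ended at -4.85 ± 0.42. During desiccation it was -1.65 ± 0.71, -1.15 ± 0.56 and -1.01 ± 0.25. Among the genes in this ratio, the seed-type share was thus largest by stage mean in the dry seed and smallest at 27 h. Dry seed replicates overlapped with those of mid and late desiccation. Further gene models listed as FAD2 or FAD3 copies, among the other fatty acid genes given below, were not in the ratios. Of these, Glyma19g32940 (listed as FAD2-2) and Glyma11g27190 (listed as FAD3) were called as rising from the dry seed to 27 h. The other models listed as FAD2 copies were not called in that span. For SACPD the ratio of SACPD-C to the other copies was -2.99 ± 1.17 in early desiccation and -0.63 ± 0.36 in mid desiccation. It was -1.08 ± 1.26 in late desiccation and -1.10 ± 0.26 in the dry seed, followed by -2.26 ± 0.69, -3.19 ± 0.24 and -4.52 ± 0.30 after imbibition. For FAD3 the ratio of FAD3A to FAD3B and FAD3C went in the opposite direction. It was -2.23 ± 1.77, -1.59 ± 0.32 and -1.08 ± 0.52 during desiccation. It was -0.94 ± 1.48 in the dry seed and -0.90 ± 0.81 at 3 h, then 0.71 ± 0.48 at 16 h and 1.12 ± 0.25 at 27 h. The FAD3 stage means thus rose at every step, and those of the dry seed and 3 h hardly differed. In late desiccation replicate 3 this ratio rested on 2 reads of FAD3A, 0 of FAD3B and 3 of FAD3C.

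The mean over the 4 stages before imbibition was set against that over the 3 stages after it, with the 7 stage means as units. The FAD2 ratio was -1.13 before and -3.24 after, a difference of 2.11 (exact permutation test, two-sided p = 0.0571, adjusted over the 3 families p = 0.0857). The FAD3 ratio was -1.46 before and 0.31 after, a difference of -1.77 (exact permutation test, p = 0.0571, adjusted p = 0.0857). The SACPD ratio was -1.45 before and -3.33 after, a difference of 1.87 (exact permutation test, p = 0.114, adjusted p = 0.114). With 35 arrangements the smallest p this test allows is 0.0571, so none could pass 0.05. The test also treats the 7 stages as exchangeable, although they come in order. A steady drift, such as that of the FAD3 means, cannot be told apart by it from a change at imbibition. The early desiccation mean of SACPD lay between those at 3 and 16 h.

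**Figure D3:**
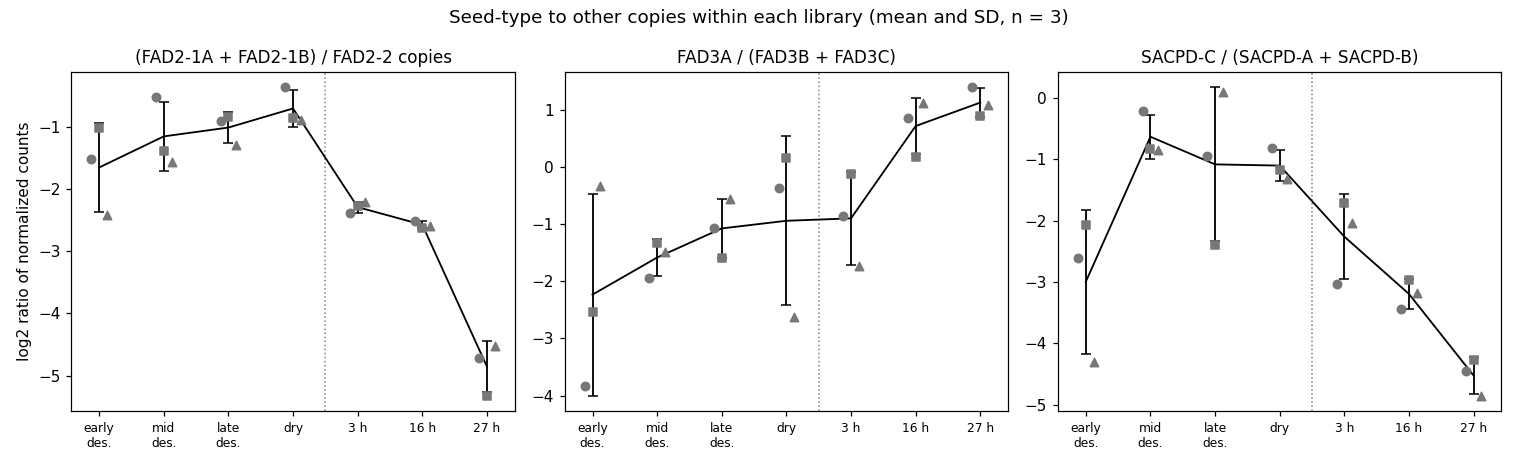
Log2 ratio of seed-type to housekeeping copies within each replicate, by stage, for FAD2, FAD3 and SACPD, with the stage mean and SD (n = 3). The FAD2 and SACPD ratios end at -4.85 and -4.52 at 27 h, and the FAD3 ratio ends at 1.12.

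Closely related copies also moved apart from each other, a comparison chosen after their values were seen and given as a description. The log2 ratio of FAD2-1A to FAD2-1B was -0.62 ± 0.06 (SD, n = 3) in the dry seed. It was -3.17 ± 0.07 at 3 h and -2.73 ± 0.61 at 16 h, and it ended at -1.80 ± 0.08. In the 3 desiccation stages its mean lay between -2.01 ± 0.49 and -1.69 ± 0.07. The dry seeds were above every sample of the other stages. The 3 h samples were below them all, but 16 h replicate 3 at -3.107 almost equalled 3 h replicate 3 at -3.109. The log2 ratio of SACPD-A to SACPD-B went from 0.03 ± 0.22 in early desiccation to 1.16 ± 0.33 in the dry seed and to -0.82 ± 0.16 at 27 h. How reads shared by near-identical copies were counted was not given in the sources used here, so a split between such copies is uncertain.

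**Figure D4:**
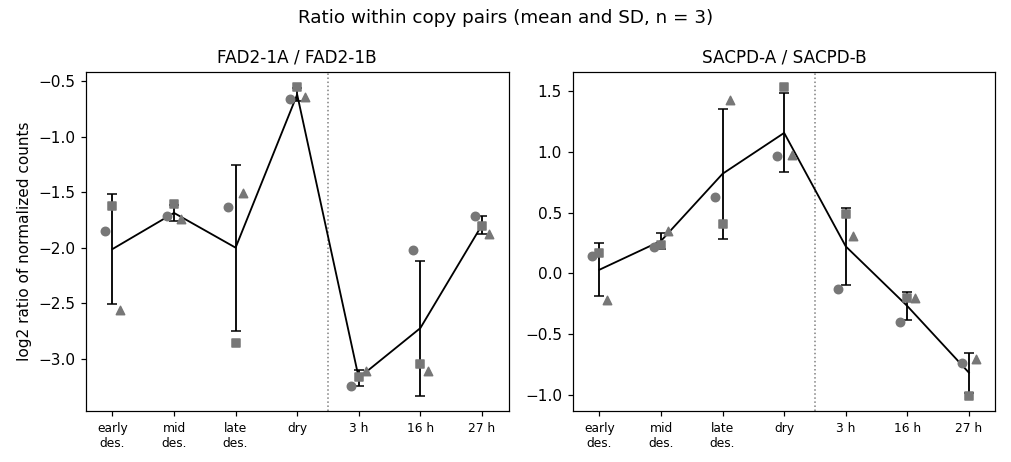
Log2 ratio of FAD2-1A to FAD2-1B and of SACPD-A to SACPD-B in each replicate, by stage, with the mean and SD (n = 3). Both ratios are highest in the dry seed, at -0.62 and 1.16.

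Across the 21 replicates the seed-type genes FAD2-1A and SACPD-C had a Pearson r of 0.871 on the log2 scale, and SACPD-A and SACPD-C one of 0.889. FAD2-1A had an r of 0.811 with SACPD-A, a copy taken as housekeeping, and FAD2-1B had one of 0.634 with SACPD-C. FAD2-1A and FAD2-1B had an r of 0.798. FAD3A ran opposite to both, with r of -0.764 against FAD2-1A and -0.802 against FAD2-1B. These values describe 7 stages of 3 replicates each and share the stages, libraries and scaling, so no p is given.

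Of the 11962 genes outside the set whose mean reached 200 normalized counts, the closest in pattern to FAD2-1A were Glyma01g05060 (r = 0.977) and Glyma13g28210 (r = 0.975). Glyma01g05060 went from a mean of 783 in the dry seed to 209.8 at 3 h and 41.4 at 27 h. The closest to FAD3A were Glyma11g19150 (r = 0.947) and Glyma15g15200 (r = 0.944). Glyma11g19150 went from 33.3 in the dry seed to 508 at 16 h and 3674 at 27 h. For SACPD-C they were Glyma04g02340 (r = 0.946) and Glyma04g21910 (r = 0.922). At r of at least 0.9 there were 349 genes like FAD2-1A, 105 like FAD3A and 11 like SACPD-C.

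A list of 17 other gene models for fatty acid and oil synthesis, none paired with a name in the tables used here, held 16 that passed the filter. Of these, 11 were called by the F test over all stages, which called 37.5% of all genes. Between the dry seed and 27 h 7 rose and 3 fell, against 19.1% and 13.1% of all genes, with a median of 0.37 on the log2 scale beside 0.12 for all genes. Between 16 and 27 h 1 rose and 4 fell, against 6.45% and 8.35% of all genes. Between 3 and 16 h 1 rose and 1 fell, against 4.77% and 2.27%. In the other 5 comparisons limma called 0 of the 16, with 0 to 5 at an unadjusted p under 0.05, and edgeR and DESeq2 called 0 or 1.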

How the data were processed

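Per the labels' protocols, total RNA was made into libraries with the Illumina TruSeq kit. The submitters' processing notes name Trimmomatic 0.38 and HISAT2. For the counting tool, genome build, annotation and strand setting, the sources used here give nothing. The deposited signal is counts that the authors normalized with DESeq, per sequencing run. Each value is a whole multiple of the worth of 1 read (at least 99.996% of values per library, within 0.001 reads), so reads were recovered. Runs were averaged per replicate. Of the value columns, 1 matched no label and was not used, which leaves late desiccation replicate 3 with its first run.

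The 46537 genes that reached 10 normalized counts in 3 or more replicates entered limma 3.58.1 (R 4.3.3) on log2(value + 1), 1 mean per stage, variance trend and robust moderation. A fold change on that scale understates changes of low genes. edgeR 4.0.16 and DESeq2 1.42.0 on the recovered read counts were alternatives: for the dry seed against 27 h they called 14087 and 16088 genes, and limma 14992. Of the tests, only the limma comparison of 27 h with the dry seed was tried on simulated data. All 10 desaturases are named. The genes closest to FAD2-1A, FAD3A and SACPD-C are the 2 with the highest r. Members and lists were chosen with earlier results of these data known. RefSeq symbols are from Glycine_max_v4.0, where 0 of the table's IDs matched.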

Additional observations from a re-analysis of the deposited data

How the results depend on the processing

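Of 17 called changes of single desaturase genes, 12 were called in all 32 alternatives and 5 were lost in some: SACPD-C from the dry seed to 3 h, FAD3A from 16 to 27 h, SACPD-A and SACPD-C from early desiccation to the dry seed, and FAD3B from the dry seed to 27 h. None changed direction. The number of the 9 genes called from early to mid desiccation (0) was 3 without the early and late desiccation replicates 3, 3 without these and dry seed replicate 1, and 0 to 2 when single replicates were left out. Both of these settings were chosen after seeing the data. Like the fit without early replicate 3 alone, they leave early replicates with lower means in the nearly silent genes than any mid replicate. From late desiccation to the dry seed (0) it was 1 without the early and late replicates. From 3 to 16 h (0) it was 1 with a pseudocount of 5, with TMM scaling, with no fold threshold, with the compared stages alone and without the early and late replicates. It was 2 with run 1 alone and without these and dry seed replicate 1, and 0 to 1 when single replicates were left out. From 16 to 27 h (3) it was 6 with the compared stages alone and 5 in both settings without the libraries that stood apart. The cause was not tested. TMM scaling moved the median change of all genes by 0.29, -0.34, 0.37, 0.08, -0.06 and 0.12 over the 6 consecutive steps, and by 0.32 and 0.15 over the 2 long spans. The difference in seed-type ratio ranged over single replicates left out from 2.03 to 2.20 for FAD2, from -2.01 to -1.56 for FAD3 and from 1.73 to 2.04 for SACPD. Same-numbered replicates did not deviate together (median r = -0.0087 over 63 pairs, and 7 of 21 correlated best with their own number). With a replicate block 6 genes were called over all stages and 7 from the dry seed to 27 h, as without it, and 14675 genes in all for that span. Depth limits the chromosome 19 copy of FAD2-2, at 0 to 64 reads per stage.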
